A study of Homo sapiens with 12 samples.

Results

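The genes described here are 7 regulators that give cells of the intestinal lining their identity: the homeobox genes CDX1 and CDX2, the nuclear receptors HNF4A and HNF4G, the zinc-finger genes GATA4 and GATA6, and A1CF, an RNA-binding cofactor of apolipoprotein B mRNA editing that is not itself a transcription factor. They were picked by gene symbol, as a set put together with earlier results of these data known, and all 7 were found among the 25540 genes listed for both cell lines. The 12 RNA-seq libraries, 3 in each of 4 groups, came from LS411N-BR, a cell line that resists BRAF inhibitors, and from LS411N, the human colon cancer cells it derives from. All cells in every group were puromycin resistant and carried a tetracycline-inducible short hairpin RNA against MUC1, a transmembrane mucin. The groups were LS411N-BR given 500 ng/ml doxycycline, LS411N-BR given 0.1% DMSO as vehicle, LS411N given doxycycline and LS411N given vehicle. LS411N-BR was grown in medium with 4 µM BRAF inhibitor in both of its groups, and LS411N without it. Line and inhibitor can therefore not be told apart in any comparison between the lines. Doxycycline was given together with the hairpin it induces in every treated library, so the drug and the hairpin cannot be told apart. The sources used here do not say whether each line was a clone or a pool of cells.

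CDX2 is the master regulator of the intestinal lineage and, with its relative CDX1, opens and activates enhancers of enterocyte genes. HNF4A and its paralog HNF4G bind the same DNA element and jointly sustain genes of the brush border and of fat absorption, while GATA4 marks the upper small intestine and GATA6 is found along the whole gut. A1CF docks the cytidine deaminase APOBEC1 onto apolipoprotein B mRNA, where a C-to-U change creates a stop codon and so the short, intestinal form of the protein.

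The values were TPM, transcript abundances scaled by gene length so that each library sums to 1000000. The lines' tables were normalised separately, so differences between lines are given as levels, without a test. The LS411N table also lists 133 genes that the LS411N-BR table lacks, and these take part of its total. Levels as deposited are therefore lower in LS411N than on the scale of shared genes, while those of LS411N-BR are the same on both. MUC1 in LS411N with doxycycline, for instance, averaged 0.922 TPM as deposited and 1.18 TPM over shared genes. Read depth is unknown from TPM. The libraries listed between 15116 and 17999 genes above 0, and short non-coding genes of at most 400 bases took 49.6% ± 2.14 of the TPM in LS411N-BR with doxycycline and 53.4% ± 1.03 without it, against 53.9% ± 2.16 in LS411N with doxycycline and 54.4% ± 6.28 without it (SD, n = 3). In LS411N without doxycycline, replicates 1 and 2 had 58.1% and 58.0% short RNA and replicate 3, which differed from them, 47.2%. MUC1 averaged 0.509 ± 0.166 TPM with doxycycline and 3.97 ± 0.293 TPM without it in LS411N-BR, and 0.922 ± 0.094 TPM with doxycycline and 5.09 ± 0.875 TPM without it in LS411N (SD, n = 3). All 10 colon epithelium markers examined reached 1 TPM in every group, and none of 9 liver or 4 squamous markers did. Of 6 immune markers LYZ and CD68 did, and their list summed to 118 to 122 TPM in LS411N-BR with doxycycline and 182 to 190.0 TPM without it, and to 1390 to 1431 TPM in LS411N with doxycycline and 2276 to 3087 TPM without it, a course whose part in the results was not tested.

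The promoters of A1CF, CDX2 and HNF4A are shown because binding motifs of members lie in them and because these genes carry the results below. They come from RefSeq (GRCh38.p14), which held 5 windows for 4 of the 7 members, each with 250 bases before and 50 bases from the transcription start onward, written 5′ to 3′ on the gene's strand. Searches for 3 short motifs, chosen after the values were seen, covered both strands, and capitals mark every match: TTTATNG for CDX factors, CAAAGNNC for HNF4 and AGATAA for GATA factors. The A1CF window is chr10:50885578-50885877 on the minus strand, and the CDX2 window is chr13:27969266-27969565 on the minus strand. HNF4A had a distal window at chr20:44355449-44355748 and a proximal one at chr20:44400989-44401288, both on the plus strand and 45540 bases apart.
A1CF: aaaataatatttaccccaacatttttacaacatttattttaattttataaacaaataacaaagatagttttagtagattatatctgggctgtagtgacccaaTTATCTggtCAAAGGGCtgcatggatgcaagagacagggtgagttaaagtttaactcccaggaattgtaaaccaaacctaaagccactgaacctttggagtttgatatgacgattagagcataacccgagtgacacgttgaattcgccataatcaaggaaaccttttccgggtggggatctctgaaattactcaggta
CDX2: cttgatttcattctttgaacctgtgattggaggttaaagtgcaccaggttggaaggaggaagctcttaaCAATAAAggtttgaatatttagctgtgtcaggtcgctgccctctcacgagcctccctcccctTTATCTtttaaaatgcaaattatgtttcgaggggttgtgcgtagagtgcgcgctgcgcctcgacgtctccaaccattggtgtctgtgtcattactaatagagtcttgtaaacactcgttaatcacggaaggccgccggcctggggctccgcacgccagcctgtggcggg
HNF4A distal: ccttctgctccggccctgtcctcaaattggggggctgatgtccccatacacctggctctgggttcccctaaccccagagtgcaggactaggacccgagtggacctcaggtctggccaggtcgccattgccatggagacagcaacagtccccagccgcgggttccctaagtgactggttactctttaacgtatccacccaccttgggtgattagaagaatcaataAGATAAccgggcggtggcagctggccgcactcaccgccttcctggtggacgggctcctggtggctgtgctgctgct

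The A1CF window held the HNF4 motif as CAAAGGGC from base -139 and the GATA motif reversed as TTATCT from base -148, counted from the transcription start. The CDX2 window held the CDX motif reversed as CAATAAA from base -181 and the GATA motif reversed from base -119. The distal HNF4A window held a GATA motif from base -26. No 2 matches overlapped. The proximal HNF4A window, not printed, and the GATA6 window held none of the 3. Among all 35116 promoter windows of the same length, 9.73% held the CDX motif, 15.9% the HNF4 motif and 10.3% the GATA motif. These are matches of letters in a window and not measured binding. The TPM of HNF4A sums transcripts from both of its promoters, so they were not separated here.

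The first comparison asked how the regulators responded to doxycycline in the resistant line LS411N-BR. CDX2, HNF4A, HNF4G, GATA6 and A1CF were all higher with doxycycline, the first 4 by 1.26-fold to 1.41-fold and A1CF by 2.22-fold in mean TPM. CDX1 and GATA4 stayed at or under 0.103 TPM and were not tested.

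CDX2 (chromosome 13, 27962137 to 27971139, minus strand, GRCh38) had 31.5, 29.8 and 29.8 TPM in LS411N-BR with doxycycline, against 21.5, 25.6 and 22.1 TPM without it. Every treated library was above every untreated one. The means were 30.4 ± 0.959 and 23.1 ± 2.23 TPM (SD, n = 3 each), a log2 fold change of 0.39 ± 0.06 on the log2(TPM + 1) scale (SE, limma with Benjamini-Hochberg adjustment over all genes tested, adjusted p = 1.3e-08).

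HNF4A (chromosome 20, 44355700 to 44434596, plus strand) had 37.0, 33.9 and 35.3 TPM in LS411N-BR with doxycycline, against 25.4, 28.8 and 25.4 TPM without it. The ranges did not overlap, and the log2 fold change was 0.41 ± 0.06 (SE, limma, adjusted p = 1.7e-09). Its paralog HNF4G (chromosome 8, 75407914 to 75566843, plus strand) had 41.5, 38.2 and 39.6 TPM with doxycycline, against 26.1, 30.3 and 28.5 TPM without it. HNF4G had the highest mean of the members in both groups of this line, its ranges did not overlap, and its log2 fold change was 0.48 ± 0.06 (SE, limma, adjusted p = 7.1e-13).

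GATA6 (chromosome 18, 22169443 to 22202528, plus strand) had 23.6, 21.7 and 21.5 TPM in LS411N-BR with doxycycline, against 16.4, 18.4 and 18.3 TPM without it. The ranges were separate and the log2 fold change of 0.32 ± 0.07 was the smallest of the 5 tested members (SE, limma, adjusted p = 4.5e-06). A1CF (chromosome 10, 50799409 to 50885675, minus strand) had 18.2, 15.7 and 17.3 TPM with doxycycline, against 7.16, 8.56 and 7.35 TPM without it. Its lowest treated library was well above its highest untreated one, and its log2 fold change of 1.06 ± 0.07 was the largest of the 5 (SE, limma, adjusted p = 1.7e-53).

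**Figure D1:**
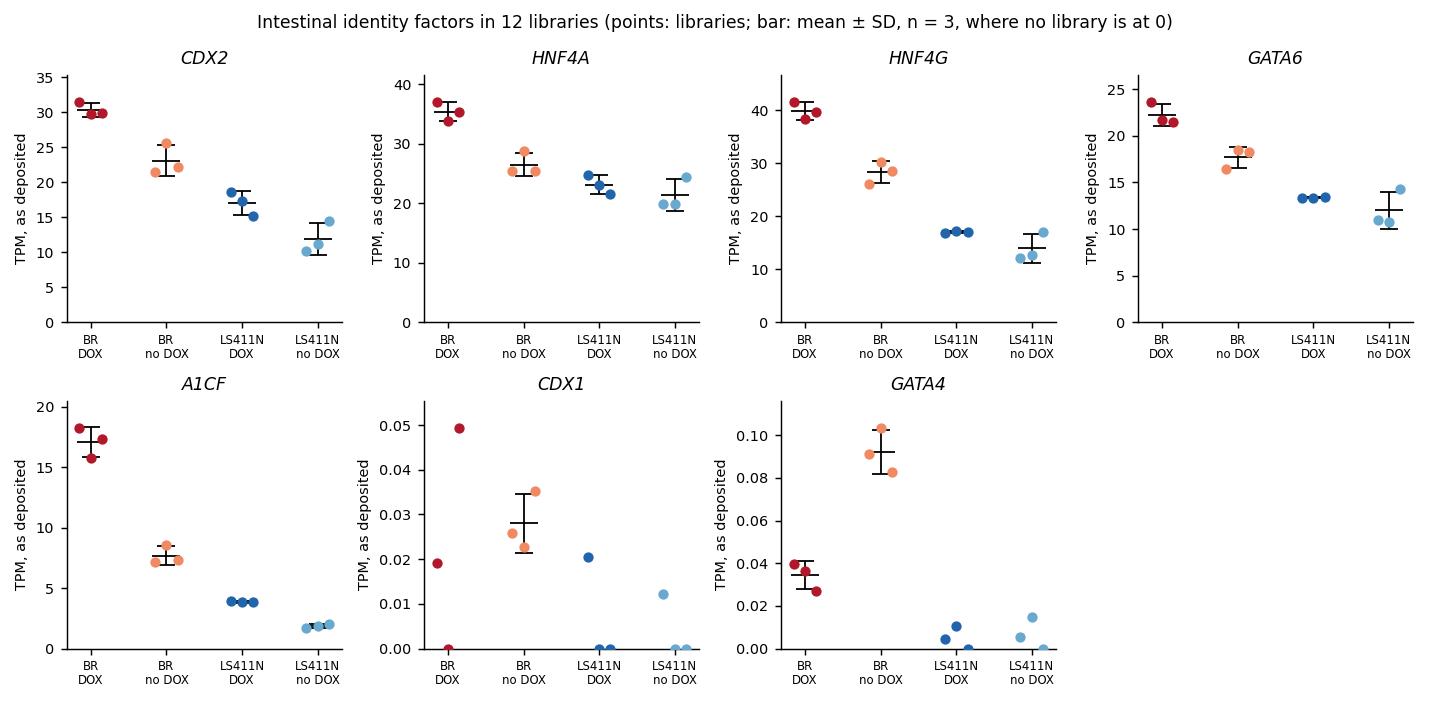
TPM as deposited (y axis, a separate linear scale for each gene) of the 7 regulators in the 12 libraries, by line and doxycycline (x axis). Points are libraries and black bars the mean ± SD of 3 libraries, left out where a library is at 0. A1CF averaged 17.1 TPM in LS411N-BR with doxycycline and 7.69 TPM without it, while CDX1 and GATA4 stay near 0 throughout.

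The call of all 5 tested members as higher in LS411N-BR has to be read against the whole transcriptome, of which 56.1% of 11322 tested genes were called higher and 11.1% lower. The members' median log2 fold change was 0.41, beside a median of 0.18 over all tested genes. CDX2 lay 0.20, HNF4A 0.22, HNF4G 0.30, GATA6 0.13 and A1CF 0.88 above that median. With the libraries rescaled by median-of-ratios size factors, which set the median gene near 0, 32.3% of genes were called higher and 32.2% lower. All 5 members were still called higher on that scale (limma with Benjamini-Hochberg adjustment), with log2 fold changes of 0.12 for GATA6 (adjusted p = 0.023), 0.18 for CDX2 (adjusted p = 0.0027), 0.20 for HNF4A (adjusted p = 0.00037), 0.28 for HNF4G (adjusted p = 8.1e-05) and 0.87 for A1CF (adjusted p = 1.8e-07). In bulk RNA, a change in the share of cells that express a gene and a change in RNA per cell cannot be told apart. The p-values rest on the spread between triplicate cultures that are not stated to be independent. With TPM as deposited, limma took each gene's variance in LS411N-BR wholly from the trend over all genes. The p-values of that fit therefore do not measure a gene's own spread between triplicates. In LS411N most of the weight also lay on that trend, with 40.5 prior degrees of freedom. Its p-values measure a gene's own spread only in small part.

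In parental LS411N, the same question gave 2 called members of the 5 tested, CDX2 and A1CF, both higher with doxycycline. CDX2 was 1.43-fold and A1CF 2.08-fold higher in mean TPM. HNF4A, HNF4G and GATA6 had higher means with doxycycline that did not pass the test.

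CDX2 had 18.6, 17.4 and 15.3 TPM in LS411N with doxycycline, against 10.2, 11.1 and 14.5 TPM without it. The groups did not overlap, though the highest untreated library, replicate 3, came close to the lowest treated one. The log2 fold change was 0.49 ± 0.14 (SE, limma with Benjamini-Hochberg adjustment, adjusted p = 0.014). Leaving out any 1 of the other 5 libraries raised its adjusted p to between 0.072 and 0.16, past the threshold of 0.05. Leaving out replicate 3 of LS411N without doxycycline lowered it to 6.9e-05. Of the fits behind the range of 0.072 to 0.16, all but the one without treated replicate 3 took variances wholly from the trend over all genes.

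A1CF had 3.97, 3.88 and 3.81 TPM in LS411N with doxycycline, against 1.66, 1.88 and 2.06 TPM without it. All treated libraries lay above all untreated ones, and the log2 fold change was 0.77 ± 0.12 (SE, limma, adjusted p = 6.7e-06). Its call held with each library left out in turn and on the median-of-ratios scale (limma, adjusted p = 1.0e-04).

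HNF4A had 24.7, 23.1 and 21.6 TPM in LS411N with doxycycline, against 19.9, 19.9 and 24.4 TPM without it. The groups overlapped through replicate 3 of the untreated cells, and the log2 fold change of 0.11 ± 0.14 did not pass (SE, limma, adjusted p = 0.68). HNF4G had 16.8, 17.2 and 17.1 TPM with doxycycline, against 12, 12.6 and 17.1 TPM without it, with a log2 fold change of 0.29 ± 0.14 (SE, limma, adjusted p = 0.20). GATA6 had 13.3, 13.4 and 13.5 TPM with doxycycline, against 10.9, 10.8 and 14.3 TPM without it, with a log2 fold change of 0.16 ± 0.14 (SE, limma, adjusted p = 0.53). In all 3 genes the untreated replicate 3 was the highest of its group, and without it each of the 3 was called (limma, adjusted p = 0.015 for HNF4A, 6.9e-05 for HNF4G and 0.001 for GATA6).

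Across the LS411N transcriptome 9.75% of 11281 tested genes were called higher and 3.43% lower, and the median log2 fold change was 0.29 over the 5 members and 0.08 over all tested genes. Without the untreated replicate 3, 5930 genes were called higher in place of 1100, and all 5 members were among them. After median-of-ratios rescaling these shares were 18.8% and 16%, and 3 members were called higher, CDX2, HNF4G and A1CF. HNF4G then had a log2 fold change of 0.22 (limma, adjusted p = 0.015).

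**Figure D2:**
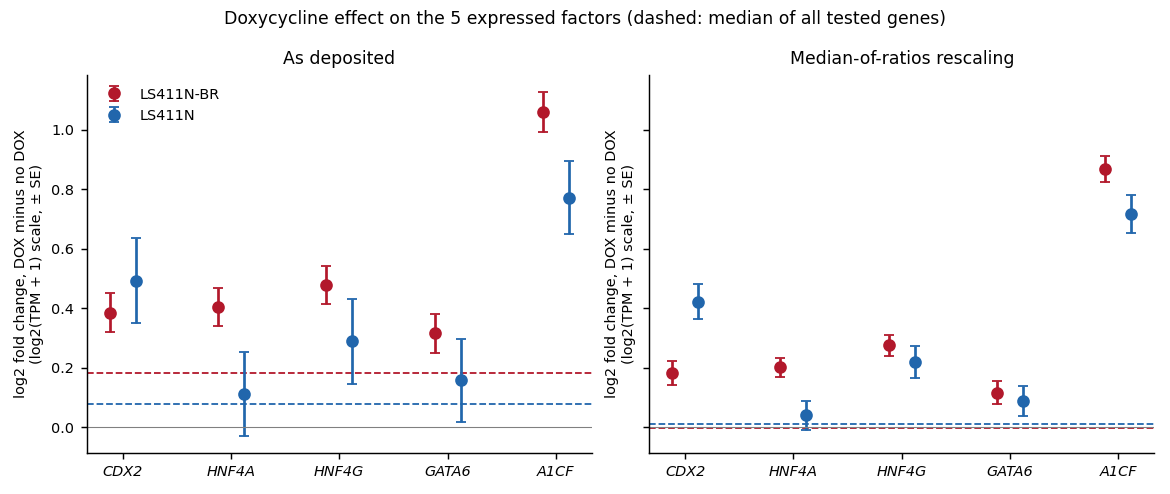
Log2 fold change with doxycycline minus without it (y axis, log2(TPM + 1) scale, ± SE from limma) for the 5 expressed members (x axis), in LS411N-BR (red) and LS411N (blue), with TPM as deposited (left panel) and after median-of-ratios rescaling (right panel). Dashed lines are the median of all tested genes, 0.18 in LS411N-BR and 0.08 in LS411N as deposited. A1CF stands highest in both lines and both panels.

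Whether the response differed between the lines was tested with the interaction term over all 12 libraries, LS411N-BR effect minus LS411N effect. No member of the 5 tested was called in either direction, where 1.39% of 11674 tested genes were called higher and 0.728% lower (4.39% and 6.43% after median-of-ratios rescaling, with again no member called). The difference on the log2 scale was 0.29 ± 0.13 for A1CF (SE, limma with Benjamini-Hochberg adjustment, adjusted p = 0.35), 0.29 ± 0.14 for HNF4A (adjusted p = 0.38), 0.19 ± 0.15 for HNF4G (adjusted p = 0.63), 0.16 ± 0.14 for GATA6 (adjusted p = 0.68) and -0.11 ± 0.16 for CDX2 (adjusted p = 0.80). The fact that HNF4A, HNF4G and GATA6 passed in LS411N-BR and missed in LS411N is therefore no shown difference between the lines. The interaction shares its libraries with the other 2 tests.

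Set on the scale of the genes that both tables list, the 5 expressed members stood higher in LS411N-BR than in LS411N, with HNF4A and GATA6 the exceptions among cells without doxycycline. A1CF had the widest gap. It averaged 17.1 TPM in LS411N-BR with doxycycline, 7.69 TPM in LS411N-BR without it, 4.96 TPM in LS411N with it and 2.38 TPM in LS411N without it, and no neighbouring groups in this order overlapped. Among cells without doxycycline the LS411N-BR over LS411N ratio of means was 3.23 for A1CF, 1.60 for HNF4G, 1.52 for CDX2, 1.16 for GATA6 and 0.972 for HNF4A. The GATA6 and HNF4A libraries of the lines overlapped there. Rescaled over protein-coding genes, HNF4A turned to 1.21 and GATA6 to 1.44, and with median-of-ratios factors to 1.18 and 1.42, on both scales with no overlap. Among cells with doxycycline the ratios were 3.45 for A1CF, 1.83 for HNF4G, 1.40 for CDX2, 1.30 for GATA6 and 1.20 for HNF4A, none with overlapping libraries. The share of all genes that separate the lines in this way was not computed. Neither the ratios nor the separation can therefore be called particular to the members.

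On the same scale of shared genes CDX2 shared the group order of A1CF, but LS411N-BR without doxycycline at 23.1 TPM and LS411N with it at 21.8 TPM overlapped. HNF4G shared it too, and there the pair of LS411N groups overlapped. For GATA6 the order was again the same, with each neighbour overlapping except LS411N-BR with doxycycline, which stood above the rest. As deposited, LS411N-BR without doxycycline and LS411N with it did not overlap for either CDX2 or GATA6. These ranges were 21.5 to 25.6 and 15.3 to 18.6 TPM for CDX2, and 16.4 to 18.4 and 13.3 to 13.5 TPM for GATA6. On the scale of shared genes HNF4A alone had another order, with 35.4 TPM in LS411N-BR with doxycycline, 29.5 TPM in LS411N with it, 27.3 TPM in LS411N without it and 26.5 TPM in LS411N-BR without it, and the last 3 groups overlapped with their neighbours. As deposited, over protein-coding genes and with median-of-ratios factors, HNF4A had the order of the other members. As deposited its LS411N-BR mean without doxycycline was 26.5 TPM, against 23.1 TPM in LS411N with it and 21.4 TPM without it.

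CDX1 and GATA4 were listed near 0 in every group. CDX1 (chromosome 5, 150166795 to 150184558, plus strand), the close relative of CDX2, was listed at 0.0192, 0 and 0.0493 TPM in LS411N-BR with doxycycline and at 0.0260, 0.0228 and 0.0353 TPM without it. In LS411N it was listed at 0.0205, 0 and 0 TPM with doxycycline and at 0.0123, 0 and 0 TPM without it. GATA4 (chromosome 8, 11676959 to 11760002, plus strand) was listed at 0.0397, 0.0365 and 0.0271 TPM in LS411N-BR with doxycycline and at 0.0910, 0.103 and 0.0826 TPM without it. Its LS411N-BR groups did not overlap, but every value lay under the 1 TPM that a gene needed in 3 libraries to be tested. In LS411N GATA4 was listed at 0.00439, 0.0104 and 0 TPM with doxycycline and at 0.00524, 0.0148 and 0 TPM without it.

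Ratios between members within a library do not depend on how that library was scaled. HNF4A over HNF4G had geometric means of 0.889 in LS411N-BR with doxycycline and 0.937 without it, against 1.36 in LS411N with doxycycline and 1.55 without it. HNF4G was thus the more abundant paralog in all 6 LS411N-BR libraries and HNF4A in all 6 LS411N libraries, a level difference that was not tested between tables. Doxycycline moved this log2 ratio by -0.07 in LS411N-BR (p = 0.3) and by -0.19 in LS411N (p = 0.2, both 2-sided exact permutation tests, n = 3 each), and the groups overlapped in both lines.

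HNF4A over CDX2 had geometric means of 1.16 in LS411N-BR with doxycycline and 1.15 without it, a log2 difference of 0.02 with overlapping libraries (exact permutation p = 0.6). In LS411N it was 1.33, 1.33 and 1.42 with doxycycline, against 1.95, 1.78 and 1.69 without it. These libraries did not overlap, and the log2 difference of -0.41 had p = 0.1, the smallest that an exact permutation test of 3 against 3 can give. A1CF over HNF4A, a ratio added after the values were seen, had geometric means of 0.483 with doxycycline and 0.290 without it in LS411N-BR, and 0.168 with doxycycline and 0.0874 without it in LS411N. The libraries were separate in both lines, with log2 differences of 0.74 in LS411N-BR and 0.95 in LS411N (exact permutation p = 0.1 each).

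**Figure D3:**
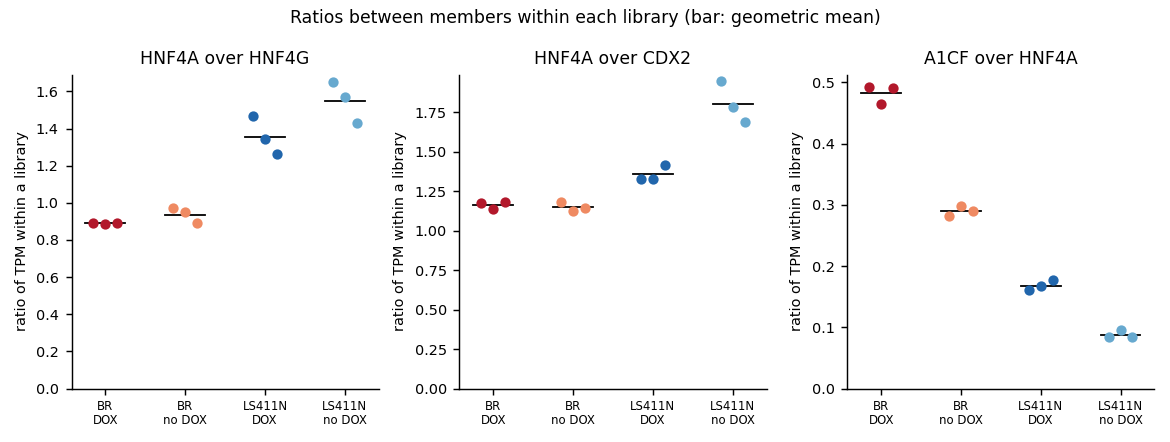
Ratio of TPM between members within each library (y axis, linear) for HNF4A over HNF4G, HNF4A over CDX2 and A1CF over HNF4A, by line and doxycycline (x axis). Points are libraries and bars geometric means of 3. HNF4A over HNF4G lies below 1 in LS411N-BR and above 1 in LS411N, and A1CF over HNF4A is higher with doxycycline in both lines.

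Of 32 genes listed as intestinal targets of CDX2 and HNF4 from general knowledge, 24 passed the filter in LS411N-BR, of which 19 were called higher and 2 lower with doxycycline (limma with Benjamini-Hochberg adjustment). In LS411N 15 passed the filter, of which 9 were called higher and 1 lower. Without the untreated replicate 3 these were 12 and 1, where 5930 of 11186 tested genes were called higher and 707 lower. With all libraries, 56.1% of all tested genes were called higher and 11.1% lower in LS411N-BR, and 9.75% and 3.43% in LS411N. Of the tested targets 5 in LS411N-BR (ABCB1, ALPI, CDHR2, SLC26A3 and TFF3) and 1 in LS411N (CDHR5) reached 1 TPM in 1 of the groups only, so that the filter admitted them through the group where they were high. Without these, 15 of 19 were called higher and 1 lower in LS411N-BR, and 8 of 14 higher and 1 lower in LS411N, with median log2 fold changes of 0.86 and 0.68, beside 0.18 and 0.08 over all tested genes. On the median-of-ratios scale the calls among all tested targets were 18 higher and 4 lower in LS411N-BR, where 32.3% and 32.2% of all genes were called, and 9 higher and 1 lower in LS411N, where 18.8% and 16% were.

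CDH17, an intestinal cadherin and direct CDX2 target, had 364, 326 and 344 TPM in LS411N-BR with doxycycline, against 202, 223 and 215 TPM without it. Its log2 fold change was 0.69 ± 0.06 in LS411N-BR (SE, limma, adjusted p = 4.3e-28) and 0.98 ± 0.15 in LS411N (adjusted p = 5.4e-06). In LS411N it had 164, 152 and 150 TPM with doxycycline, against 64.9, 70.0 and 104 TPM without it, again with no overlap.

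KRT20, a keratin of differentiated colonocytes, averaged 145 ± 10.3 TPM in LS411N-BR with doxycycline and 24.7 ± 1.82 TPM without it, and 17.3 ± 0.921 TPM in LS411N with doxycycline and 3.64 ± 1.21 TPM without it (SD, n = 3). FABP1, a fatty-acid-binding protein of enterocytes, averaged 167 ± 17.1 TPM in LS411N-BR with doxycycline and 41.0 ± 3.03 TPM without it, and 39.1 ± 4.03 TPM in LS411N with doxycycline and 6.84 ± 2.19 TPM without it. These had the largest log2 fold changes on the list, 2.50 for KRT20 and 2.00 for FABP1 in LS411N-BR and 2.01 and 2.39 in LS411N. The adhesion protein CEACAM5 had log2 fold changes of 1.27 in LS411N-BR and 1.34 in LS411N, and the brush-border peptidase DPP4 1.12 and 1.16.

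MTTP, which loads lipid onto apolipoprotein B, averaged 21.7 ± 0.818 TPM in LS411N-BR with doxycycline and 7.98 ± 1.04 TPM without it (SD, n = 3; limma, adjusted p = 1.5e-86), and 0.313 and 0.151 TPM in LS411N, below the filter. GPA33, a cell-surface antigen of the gut and CDX target, was lower with doxycycline in both lines. It averaged 43.6 ± 0.917 TPM in LS411N-BR with doxycycline and 74.4 ± 3.04 TPM without it (log2 fold change -0.76, limma, adjusted p = 1.2e-31), and 6.53 ± 0.345 TPM in LS411N with doxycycline and 10.2 ± 1.24 TPM without it (log2 fold change -0.56, adjusted p = 0.0024, or 0.062 without replicate 3 of LS411N with doxycycline). TFF3, a trefoil peptide of goblet cells, had 0.664 ± 0.106 TPM in LS411N-BR with doxycycline and 1.14 ± 0.0647 TPM without it, where the untreated libraries alone passed 1 TPM, and was not called in LS411N (log2 fold change -0.13, limma, adjusted p = 0.65).

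**Figure D4:**
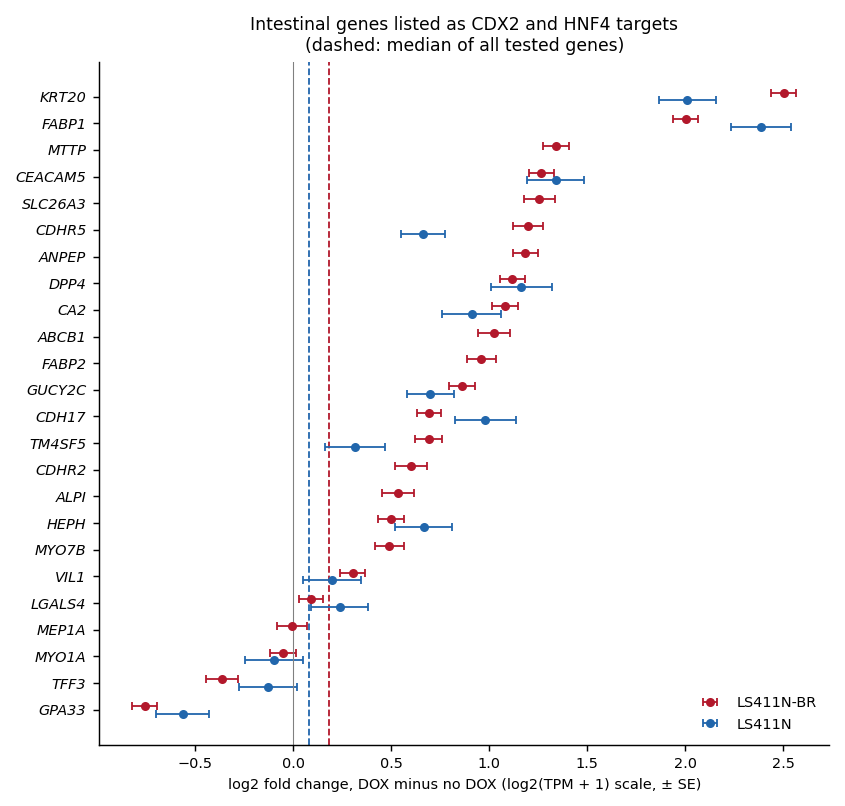
Log2 fold change with doxycycline minus without it (x axis, log2(TPM + 1) scale, ± SE from limma) of the 24 listed intestinal target genes tested in LS411N-BR (red), 5 of which reached 1 TPM in 1 group only, with LS411N (blue) where tested there. Dashed lines are the medians of all tested genes, 0.18 and 0.08. KRT20 and FABP1 lie farthest to the right and GPA33 lies left of 0 in both lines.

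Of 28 partner and neighbouring transcription factors, 21 were tested in LS411N-BR, with 14 called higher and 3 lower, and 18 in LS411N, with 7 called higher and 1 lower (limma with Benjamini-Hochberg adjustment). Without the untreated replicate 3 of LS411N its counts were 12 higher and 3 lower, where 5930 of 11186 tested genes were called higher and 707 lower. With all libraries, 56.1% of all tested genes were called higher and 11.1% lower in LS411N-BR, and 9.75% and 3.43% in LS411N. Within LS411N-BR, CREB3L3 and ISX reached 1 TPM in the treated libraries only, and without them 12 of 19 were called higher and 3 lower there. Median log2 fold changes without them were 0.24 in LS411N-BR and 0.25 in LS411N, beside 0.18 and 0.08 over all tested genes. On the median-of-ratios scale the calls were 11 higher and 6 lower in LS411N-BR, where 32.3% and 32.2% of all genes were called, and 9 higher and 3 lower in LS411N, where 18.8% and 16% were.

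The progenitor factor SOX9 was lower in both lines, at 33.9 ± 1.22 TPM in LS411N-BR with doxycycline and 58.2 ± 2.89 TPM without it (log2 fold change -0.76, limma, adjusted p = 1.2e-31), and at 55.3 ± 1.38 TPM in LS411N with doxycycline and 81.4 ± 3.60 TPM without it (-0.55, adjusted p = 0.0046). The LS411N call was lost without replicate 2 or replicate 3 of the treated cells (limma, adjusted p = 0.072 and 0.062). FOXA2, a pioneer factor of the endoderm, averaged 8.60 ± 0.245 TPM in LS411N-BR with doxycycline and 15.2 ± 0.374 TPM without it (log2 fold change -0.75, limma, adjusted p = 1.6e-27), and 16 ± 1.07 TPM in LS411N with doxycycline and 20.1 ± 1.97 TPM without it, again with no overlap (-0.31, adjusted p = 0.14). In LS411N it was called lower on the median-of-ratios scale (limma, adjusted p = 0.0012), over protein-coding genes (0.0019), in 1 fit of all 12 libraries (0.017) and without the untreated replicate 3 (0.008).

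KLF4, a factor of differentiating surface cells, averaged 84.0 ± 3.94 TPM in LS411N-BR with doxycycline and 28.1 ± 1.82 TPM without it, and 52.3 ± 3.45 TPM in LS411N with doxycycline and 22.1 ± 3.24 TPM without it (SD, n = 3), and was called in both lines. ISX, an intestine-specific homeobox gene downstream of CDX2, had 2.13, 2.23 and 2.07 TPM in LS411N-BR with doxycycline, against 0.261, 0.571 and 0.336 TPM without it. In LS411N it stayed at or under 0.242 TPM in every library and was not tested. CREB3L3, a factor of lipid metabolism in liver and gut, averaged 2.41 ± 0.0707 TPM in LS411N-BR with doxycycline and 0.182 ± 0.063 TPM without it. In LS411N it averaged 0.813 ± 0.178 TPM with doxycycline and 0.145 ± 0.126 TPM without it, below the filter and with no overlap in either line.

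PPARG, a nuclear receptor of lipid sensing, had log2 fold changes of 0.70 in LS411N-BR and 0.85 in LS411N, PDX1 of the duodenum and pancreas 0.60 and 0.68, and PRDM1, a repressor of mature enterocyte genes in the fetal mouse gut, 0.56 and 0.73, all called (limma, adjusted p between 5.3e-25 and 6.3e-05). NR5A2, a nuclear receptor of crypt cells, had 0.91 in LS411N-BR (limma, adjusted p = 1.2e-35) and 0.35 in LS411N (adjusted p = 0.04), a call that 8 of the alternatives lost. BHLHA15, a secretory-cell factor, was lower in LS411N-BR, at 1.08 ± 0.400 TPM with doxycycline and 2.78 ± 0.208 TPM without it (log2 fold change -0.88, limma, adjusted p = 1.1e-28).

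The third set was the apolipoprotein B mRNA editing machinery around A1CF. Of 11 listed genes 9 were tested in each line. With doxycycline 2 were higher and 2 lower by the test in LS411N-BR, and in LS411N 2 higher and none lower (limma with Benjamini-Hochberg adjustment). Leaving out the untreated replicate 3 of LS411N gave 4 higher, where 5930 of 11186 tested genes were called higher and 707 lower. With all libraries, 56.1% of all tested genes were called higher and 11.1% lower in LS411N-BR, and 9.75% and 3.43% in LS411N. The medians of 0.06 in LS411N-BR and 0.02 in LS411N lay below those of all tested genes. On the median-of-ratios scale 1 was called higher and 6 lower in LS411N-BR, where 32.3% and 32.2% of all genes were called, and 2 higher and 1 lower in LS411N, where 18.8% and 16% were.

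APOBEC1, the deaminase that A1CF brings to its substrate, differed between the lines in its response. It had 15.7, 13.7 and 15.7 TPM in LS411N-BR with doxycycline, against 17.2, 17.5 and 16.4 TPM without it, so that all treated libraries were the lower ones. In LS411N it had 4.72, 5.08 and 4.87 TPM with doxycycline, against 2.57, 3.01 and 2.36 TPM without it, so that all treated libraries were the higher ones. The log2 fold change was -0.17 ± 0.07 in LS411N-BR (SE, limma, adjusted p = 0.018) and 0.69 ± 0.13 in LS411N (adjusted p = 7.1e-05), and the difference between them was -0.86 ± 0.13 (adjusted p = 0.00032), called under all 20 alternatives tried. The call in LS411N-BR was lost under 5 of 16 alternatives, with adjusted p = 0.16 without replicate 2 of the treated cells, 0.064 without replicate 1 of the untreated ones, 0.08 with no filter and 0.15 in 1 fit of all 12 libraries (limma), and with the replicate number as a block.

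RBM47, an alternative cofactor that can support editing with APOBEC1, averaged 74.0 ± 4.47 TPM in LS411N-BR with doxycycline and 51.0 ± 2.70 TPM without it (log2 fold change 0.53, limma, adjusted p = 5.1e-16). In LS411N it averaged 48.5 ± 0.858 TPM with doxycycline and 36.6 ± 3.50 TPM without it (0.40, adjusted p = 0.048), a call that 8 of the alternatives lost. Its level was above that of A1CF in every group. HNRNPC, an RNA-binding protein, was called lower in LS411N-BR (log2 fold change -0.21, limma, adjusted p = 0.0013) and the importin TNPO2 higher (0.20, adjusted p = 0.0037, or 0.91 on the median-of-ratios scale). The substrate APOB was listed at 0 in all 6 LS411N libraries and at no more than 0.00252 TPM in LS411N-BR, so A1CF rose in cells with next to no APOB mRNA.

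**Figure D5:**
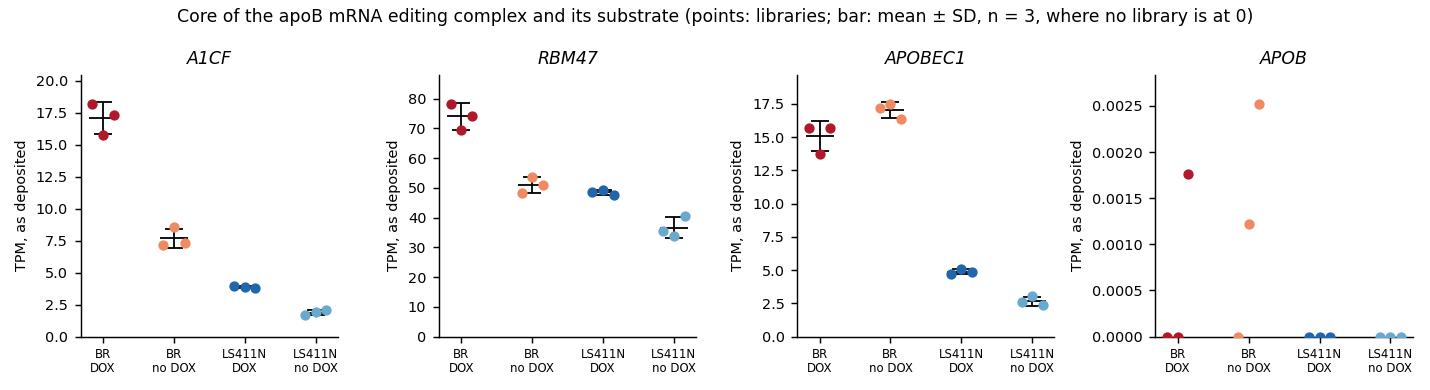
TPM as deposited (y axis, a separate linear scale for each gene) of A1CF, RBM47, APOBEC1 and the substrate APOB in the 12 libraries, by line and doxycycline (x axis). Points are libraries and black bars the mean ± SD of 3, left out where a library is at 0. APOBEC1 averaged 15.1 TPM in LS411N-BR with doxycycline and 17.0 TPM without it, and 4.89 TPM in LS411N with doxycycline and 2.65 TPM without it, while APOB stays near 0.

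Genes with the most similar course over the 4 group means were sought among 9114 genes that reached 5 TPM in a group mean. The measure was the root mean square difference of log2(TPM + 1) values, rescaled over shared genes and centred on each gene's mean. The nearest to CDX2 were HOXB8 at 0.0201 and C4ORF33 at 0.0250, to HNF4A ANKS1A at 0.00583 and TMCO1 at 0.00974, and to HNF4G NUPL2 and RAP1A, both at 0.0195. The nearest to GATA6 were PTTG1IP at 0.00919 and VPS41 at 0.0106, and to A1CF TMCC3 at 0.0475 and DISP2 at 0.0716. The members were not each other's nearest genes. From CDX2 the nearest member was HNF4G at rank 509, from HNF4A it was GATA6 at rank 881, and from A1CF it was HNF4G at rank 233. With median-of-ratios factors HOXB8 moved to rank 2 and C4ORF33 to rank 9 from CDX2, and ANKS1A to rank 4 and TMCO1 to rank 1 from HNF4A. The genes named for the other members kept their order. This likeness rests on 4 points, compares levels across tables normalised separately, and is a description.

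Some transcripts of other genes overlap the members. GATA6-AS1, antisense to GATA6, was listed between 0.583 and 1.12 TPM in LS411N-BR and between 0.737 and 1.15 TPM in LS411N, and HNF4A-AS1 at 0 in every library. ASAH2B, on the strand opposite to the end of A1CF, was listed between 6.01 and 7.81 TPM in LS411N-BR and between 3.26 and 5.13 TPM in LS411N. The kit kept strand, but the sources used here do not give the strand setting of the counting, so A1CF and ASAH2B reads may not be fully separated.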

How the data were processed

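Messenger RNA libraries were made with a stranded TruSeq kit from cells cultured in triplicate, per the labels' protocols. STAR, DESeq2 and the GRCh38 build are named in the submitters' processing notes without their roles, and the sources used here name neither the program nor the gene annotation behind the TPM. The authors deposited TPM per gene in 1 table for each line, each library summing to 1000000, and no read counts were used, so depth is unknown. TPM divides by the library's total, so the share taken by short RNA genes moves all other values.

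Values were tested as log2(TPM + 1) with limma 3.58.1 (R 4.3.3, trended moderation, 2-sided), for genes that reached 1 TPM in 3 or more libraries of the comparison. P-values were adjusted over all genes tested by the Benjamini-Hochberg method and called under 0.05. Each line was fitted alone, and the difference between lines was the interaction term over all 12 libraries. The script was tested on simulated data. Deviations from group means correlated between 0.0031 and 0.17 for same-numbered libraries and between -0.21 and 0.21 for different-numbered ones. With 3 libraries per group this cannot show whether replicate numbers pair the libraries. No block was fitted in the reported results.

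The members and gene lists were chosen with earlier results of these data known, so no count of them stands as independent evidence. Named were all 7 members, up to 4 called list genes with the largest change per direction and line, and RBM47, APOBEC1, APOB and CDH17. Some genes of the partner factor list are counted with it but not reported here by name. Gene positions came from GENCODE 29 and promoters from RefSeq, matched by symbol. Alternatives were a pseudocount of 0.1, no filter, a filter of 5 TPM, 3 rescalings (median-of-ratios, protein-coding genes, shared genes), untrended or robust moderation, a replicate block, 1 fit of all 12 libraries and leaving out each library. The A1CF over HNF4A ratio, the list counts after rescaling over protein-coding genes, the list counts without genes at 1 TPM in 1 group only, and the motif search were added after seeing the data.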

Additional observations from a re-analysis of the deposited data

Results flagged for a closer look

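For 2 of the genes named from the lists and tested in both lines, the doxycycline effect differed between the lines. The test was the limma interaction term over all 12 libraries (LS411N-BR effect minus LS411N effect, log2 scale, Benjamini-Hochberg adjustment). Neither is one of the 7 regulators. APOBEC1 had a difference of -0.86 (adjusted p = 0.00032), with every treated library below every untreated one in LS411N-BR and above every untreated one in LS411N. NR5A2 had 0.57 (adjusted p = 0.03), which was lost under 10 of 20 alternatives. The listed target CDHR5, tested in both lines but outside the naming rule, also passed, with 0.53 (adjusted p = 0.014). In LS411N CDHR5 reached 1 TPM only with doxycycline. ISX, MTTP, CREB3L3 and BHLHA15 also passed the interaction term, as did the listed targets ABCB1, ANPEP, CDHR2, FABP2 and SLC26A3. All of them were too low to be tested in LS411N, where log2(TPM + 1) compresses any change, so their differences are not given as results. MTTP, for instance, was 2.72-fold higher with doxycycline in mean TPM in LS411N-BR and 2.07-fold in LS411N, and CREB3L3 13.2-fold and 5.60-fold.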

How the results depend on the processing

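All 5 member calls in LS411N-BR held under all 16 alternatives, and the A1CF call in LS411N under all 15 that could test it. In LS411N-BR, rescaling over shared genes leaves the values as deposited, so this 1 alternative repeats the main fit and adds no support. The CDX2 call in LS411N was lost with no filter, with the replicate block and without any 1 of 5 libraries, which left A1CF as the 1 member called higher. A filter of 5 TPM left A1CF untested there and CDX2 as the 1 member called. Without the filter GATA4 became the 1 member called lower, both in LS411N-BR and in the interaction term, and HNF4A the 1 member called higher in that term after rescaling over protein-coding genes. Leaving out 1 library gave 1 to 5 called members in LS411N. Whether replicate numbers pair the libraries is unknown. The replicate block gave 632 genes higher in LS411N, against 1100 without it, and lost the APOBEC1 call in LS411N-BR (limma, adjusted p = 0.089).

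Genes called in LS411N-BR were 6351 higher and 1252 lower, against 3652 and 3641 after median-of-ratios rescaling, 2445 lower after rescaling over protein-coding genes and 722 lower with all 12 libraries in 1 fit. In LS411N they were 1100 higher and 387 lower, against 583 and 223 with no filter, 253 lower with a filter of 5 TPM, 2124 and 1802 with median-of-ratios, 2772 and 1314 over protein-coding genes, 1952 and 685 in 1 fit, and 454 to 5930 and 170 to 707 with 1 library left out. The difference gave 162 higher and 85 lower, against 59 and 50 with a pseudocount of 0.1, 84 and 56 with 5 TPM, 512 and 750 with median-of-ratios, 573 and 427 over protein-coding genes, and 67 to 465 and 47 to 593 with 1 library left out.

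With median-of-ratios, targets called lower were 4 of 24 in LS411N-BR and 6 of 24 in the difference. Partner factors called lower were 6 of 21 in LS411N-BR and 3 of 18 in LS411N. In the difference 6 of 21 were higher and 6 lower. Of 9 editing genes 1 was higher and 6 lower in LS411N-BR, 1 lower in LS411N and 2 lower in the difference. Over all tested genes on that scale 32.3% were called higher and 32.2% lower in LS411N-BR. In LS411N 16% were called lower, and in the difference 4.39% higher and 6.43% lower. Over protein-coding genes, 4 of 24 targets were lower in the difference, where 427 of 12760 tested genes were. Partner factors were lower for 3 of 21 in LS411N, where 1314 of 12388 tested genes were. In the difference 6 of 23 partner factors were higher and 3 lower, against 573 and 427 of all 12760 genes. Without replicate 3 of LS411N without doxycycline, 6 of 24 targets and 4 of 21 partner factors were lower in the difference. Of all 11624 genes tested there, 593 were lower. In LS411N 12 of 18 partner factors were then higher and 3 lower, and 4 of 9 editing genes higher. Of all 11186 genes tested there, 5930 were higher and 707 lower. Without the list genes that reached 1 TPM in 1 group or line only, 1 of 19 targets was called lower in LS411N-BR. In the difference 1 of 15 targets was called higher (against 7 of 24). There 0 of 19 partner factors were called lower (against 1 of 21, BHLHA15, which is then left out). Over all tested genes 11.1% were called lower in LS411N-BR, and 1.39% higher and 0.728% lower in the difference. Beyond the settings' own construction, the cause of these shifts was not tested. CDX1 and GATA4 lie at levels where unknown depth limits any statement.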

Other observations

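Some of these factors also act in stomach or pancreas, so markers of those tissues were examined. Of 9 stomach markers 1 reached 1 TPM in LS411N-BR with doxycycline (TFF1) and 1 without it, against 3 in LS411N with doxycycline and 2 without it, and GKN1 was listed at 0 in all groups. Of 6 pancreas markers, PDX1 reached 1 TPM in every group and PRSS1 in both LS411N groups, at 13.7 TPM with doxycycline and 19.3 TPM without it. Of 8 fibroblast and endothelium markers, LUM alone reached 1 TPM, at 2.71 TPM in LS411N-BR with doxycycline and 1.31 TPM without it. LYZ, which is also made by Paneth cells, stood at 1392 TPM in LS411N with doxycycline and 2589 TPM without it.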
